A study of Mus musculus with 13 samples.

Results

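Lipid handling was followed through 10 genes, Fabp1, Fabp4, Fabp5, Cd36, Lpl, Plin2, Cidec, Apoe, Abca1 and Abcg1, in the cells of dissociated mouse lung. The genes were looked up by symbol, and each of the 10 matched 1 of the 31053 genes of the single-cell matrix. Their unique molecular identifiers (UMIs, 1 for each captured mRNA molecule) were summed over the cells of a class in a library and are given as counts scaled to 1000000 UMIs of those cells (CPM). CPM were not divided by transcript length, since the protocol reads the 3' end, and levels were compared between cells for 1 gene and not between genes.

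Lung macrophages take up and clear surfactant, the lipid film of the alveoli, and in mice the resident alveolar macrophage depends on the nuclear receptor PPARgamma, whose targets include many genes of lipid uptake and storage. Fatty acids enter through the scavenger receptor CD36 or are freed from triglyceride by lipoprotein lipase (Lpl), are carried in the cytosol by the fatty acid binding proteins (Fabp1, Fabp4 and Fabp5), and are stored in droplets coated by Plin2 and Cidec. Cholesterol leaves the cell through the transporters Abca1 and Abcg1, and apolipoprotein E (Apoe) is one of its carriers.

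The droplet libraries, made with a 3' Chromium kit, come from lungs of C57BL/6 mice, and the labels name 4 single-cell samples: Asthma (ovalbumin sensitisation and challenge), Control, PPE-emphysema (repeated instillation of porcine pancreatic elastase, PPE) and PPE-recovery. The other labelled samples of the 13 are Acute injury, Con and emphysema lungs with 3 replicates each. Barcodes in the matrix carry a library number and no sample name, so libraries 1, 2, 3 and 7 could not be tied to a treatment and no treatment was compared. Each library is given by its number, cells of 1 library are not replicates, and no test across samples was possible. All intervals are exact 95% intervals (Poisson for CPM, binomial for shares and ratios) that cover counting error only.

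Of 24344 barcodes in these libraries, 20856 had at most 10% mitochondrial UMIs and were kept, with a median of 6800 to 8364 UMIs per cell in a library. Cells were grouped by clustering without the 10 genes and without 76 further lipid handling genes, and clusters were named from marker genes. The alveolar macrophage-like cells (1283, called alveolar macrophages here) carried Marco at 441 CPM and Krt79 at 661 CPM, and the Arg1/Mmp12 macrophage-like cells (1637) carried Arg1 at 1042 and Mmp12 at 2832 CPM. The C1q macrophage-like cells (811) had C1qa at 4719 CPM. A further macrophage cluster of 1266 cells led by Spp1 (4384 CPM) had Arg1 or Mmp12 in 31.7% of its cells, against 87.6% in the Arg1/Mmp12 cells, and was kept apart under the name Spp1 cluster after its markers were seen. It did not form a class of its own with limits on UMIs and genes, without alignment, at resolution 0.4 or with 15 components. In these settings, in this order, the alveolar class held 2213, 747, 3022 and 3234 cells, against 1283 here. The Arg1/Mmp12 class held 1705, 1953, 1168 and 1106, against 1637 here. Alveolar markers summed to 3258 CPM in the Spp1 cluster, 4796 CPM in alveolar and 2465 CPM in Arg1/Mmp12 macrophages. Arg1/Mmp12 markers summed to 5686, 1402 and 8619 CPM in the same order. Levels given for the Spp1 cluster therefore hold for the clustering used here. Classes from marker UMIs had no such class by design, so that setting could not show it. Classical monocyte-like (1318, Ly6c2 1322 CPM), nonclassical monocyte-like (1148, Ace 770 CPM), endothelial-like (2852, Cdh5 2066 CPM) and alveolar type 2-like cells (349, Sftpc 170244 CPM) completed the set, with T cells (1137) and B cells (1444) as background. Libraries differed in which macrophages they held: library 1 had 858 Arg1/Mmp12 cells and library 3 had 23, while library 3 had 677 alveolar macrophages and library 7 had 112. These counts depended on the processing. With a mitochondrial limit of 5%, library 1 held 80 Arg1/Mmp12 cells and library 3 held 49. Alveolar macrophages of libraries 1, 2, 3 and 7 numbered 16, 56, 667 and 8 without alignment, and library 7 held 560 at resolution 0.4. Values from fewer than 50 cells of a class in a library were not used for counts. Between 6 and 17 barcode sequences were shared by each pair of libraries, 64 in all.

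Summed over the 4 libraries, 5 of the 10 genes had their highest level among the 8 classes in alveolar macrophages: Fabp1, Lpl, Plin2, Cidec and Abcg1. Apoe and Abca1 were highest in C1q macrophages, Fabp4 and Fabp5 in the Spp1 cluster, and Cd36 in endothelial cells. The genes therefore did not share 1 pattern. The share of all genes with their highest level in alveolar macrophages was not computed, so the count of 5 is a description alone. Plin2 was no longer highest in alveolar macrophages without library 3, with a mitochondrial limit of 5%, at resolution 0.4 or with 15 components, and at resolution 0.4 Fabp4 was highest there. For several genes the top 2 classes overlapped between libraries, as given with each gene.

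**Figure D1:**
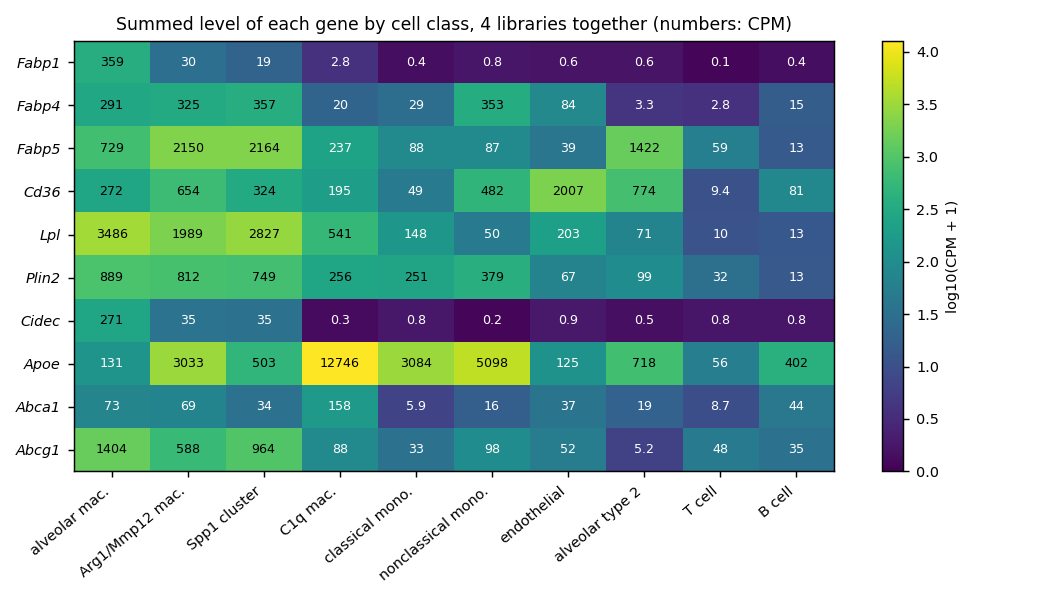
Summed level of each gene (rows) in each cell class (columns) over 4 libraries, with the CPM printed in each cell and the colour giving log10(CPM + 1). Fabp1 and Cidec fall from 359 and 271 CPM in alveolar macrophages to under 3 CPM in C1q macrophages and in the plotted classes that are not macrophages, whereas Apoe reaches 12746 CPM in C1q macrophages and 131 CPM in alveolar macrophages.

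Fabp1 (chr6:71199827-71205023, plus strand, GRCm38), the liver-type fatty acid binding protein, was at 182, 145, 552 and 148 CPM in alveolar macrophages of libraries 1, 2, 3 and 7. Library 3 stood above the other 3, which lay close together. The lowest of them was still above every other of the 8 classes in libraries with enough cells. In Arg1/Mmp12 macrophages the level was 42.6, 7.92 and 2.95 CPM in libraries 1, 2 and 7, and in the Spp1 cluster 8.76, 12.1 and 21.1 CPM. Those ranges, from libraries with at least 50 cells, overlapped each other and did not reach the alveolar range. Library 3 held fewer such cells: its 16 Arg1/Mmp12 cells with a Marco or Krt79 UMI had 250 CPM and its 7 without one 146 CPM, within the alveolar range. After thinning to 1500 UMIs, Fabp1 was seen in 34.6% of 26 Spp1 cluster cells of library 3, against 42.5% of its alveolar macrophages. In C1q macrophages, monocytes, endothelial cells and alveolar type 2 cells no library exceeded 5.16 CPM, and B cells had up to 0.873 CPM. Outside the 8 classes, dividing cells (349) had 67.4 CPM of Fabp1 in sum, above the Arg1/Mmp12 sum of 30.4 CPM. A cluster of 182 of these dividing cells carried the alveolar markers Marco at 229 CPM and Krt79 at 356 CPM.

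Cidec (chr6:113424634-113435760, minus strand), a droplet protein that promotes fusion of droplets into larger ones, followed Fabp1. Its levels in alveolar macrophages were 169, 174, 364 and 172 CPM in libraries 1, 2, 3 and 7. Again library 3 was high and the other 3 nearly equal. In Arg1/Mmp12 macrophages Cidec was at 47.1, 22.5 and 6.26 CPM (libraries 1, 2 and 7) and in the Spp1 cluster at 24.5, 31.5 and 34.9 CPM. Only 3 Cidec UMIs fell in the 811 C1q macrophages, and T cells held 0.766 CPM. Over 60 sums of a class and a library (19 classes with at least 50 cells), the level of Cidec, as log2(CPM + 10), had a Pearson correlation of 0.966 with that of Fabp1, the highest among all pairs of the 10 genes. These points share libraries and classes, and the value is a description.

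A promoter window of each gene of this pair is shown because the genes share their cell pattern. Windows run from 250 bases before to 50 bases after a RefSeq start (GRCm38.p6), in the direction of transcription. Capitals mark the nuclear receptor half-site AGGTCA and the AP-1 site TGAGTCA, each searched on both strands.
Fabp1, chr6:71199629-71199928, plus strand: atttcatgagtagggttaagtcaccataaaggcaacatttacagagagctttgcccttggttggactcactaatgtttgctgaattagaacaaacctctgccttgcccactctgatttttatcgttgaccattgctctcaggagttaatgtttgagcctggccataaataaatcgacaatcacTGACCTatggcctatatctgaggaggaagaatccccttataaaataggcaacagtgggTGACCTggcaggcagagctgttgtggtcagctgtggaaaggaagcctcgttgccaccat
Cidec, chr6:113434715-113435014, minus strand: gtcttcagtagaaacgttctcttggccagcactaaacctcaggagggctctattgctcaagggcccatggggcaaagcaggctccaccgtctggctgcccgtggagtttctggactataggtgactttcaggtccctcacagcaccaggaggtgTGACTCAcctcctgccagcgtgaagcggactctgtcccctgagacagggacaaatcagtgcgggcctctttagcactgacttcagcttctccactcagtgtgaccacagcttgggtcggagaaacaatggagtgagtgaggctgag
The half-site letters stood at 2 places in the Fabp1 window and in neither of the 2 Cidec windows, of which the one shown held the AP-1 letters. The other Cidec window, chr6:113435711-113436010, takes in the annotated start of the gene at 113435760 and held none of the motifs searched. The Cidec window shown lies downstream of that start, inside the gene. Which start these cells use was not tested. Among all 32851 promoter windows of the table, 16.3% held the half-site and 5.20% the AP-1 letters, so neither match is rare. Besides Fabp1, the windows of Cd36 and Plin2 held the half-site. A TATA box (TATAAA) was found in windows of Fabp1, Abca1 and Apoe and in 13.6% of all windows, and a GC box (GGGCGG) in those of Abca1, Cd36 and Plin2 and in 35.7%. A match says only that the letters are there. Windows were at hand for 6 of the 10 genes.

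Plin2 (chr4:86648386-86670060, minus strand), which coats droplets in most cell types, did not separate alveolar macrophages, Arg1/Mmp12 macrophages and the Spp1 cluster. Alveolar macrophages had 770, 807, 979 and 787 CPM in libraries 1, 2, 3 and 7. Arg1/Mmp12 macrophages had 775, 701 and 927 CPM in libraries 1, 2 and 7, and the Spp1 cluster 860, 736 and 751 CPM. All 3 ranges overlapped. The next class, nonclassical monocytes (325 to 457 CPM), lay below each of them, and C1q macrophages (193 to 299 CPM) and classical monocytes (225 to 272 CPM) overlapped each other.

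Fabp5 (chr3:10012548-10016607, plus strand) is the epidermal-type binding protein. It was lower in alveolar macrophages, where Fabp1 was higher, than in the Spp1 cluster and, library by library, than in Arg1/Mmp12 macrophages. The Spp1 cluster held 3578, 2094 and 2092 CPM in libraries 1, 2 and 7, and Arg1/Mmp12 macrophages 2453, 1404 and 1915 CPM. Alveolar macrophages had 1299, 914, 497 and 795 CPM in libraries 1, 2, 3 and 7, so library 3, the highest for Fabp1, was the lowest for Fabp5. Alveolar type 2 cells, with 1262 and 1652 CPM in libraries 2 and 3, overlapped the Arg1/Mmp12 and alveolar ranges and lay below the Spp1 cluster. In C1q macrophages the level was 130 to 332 CPM and in endothelial cells 15.6 to 52.1 CPM. T cells, taken as background, had 29.3 to 72.6 CPM, and the endothelial level was not above them. Both monocyte classes (63.6 to 172 CPM) overlapped the T cells. In sum the endothelial level (39.4 CPM) was below that of T cells (58.7 CPM) but above that of B cells (13.4 CPM). These background classes thus did not give the same level. Fabp5 has a near-identical pseudogene copy, Fabp5l2, with which reads can be shared, and its level is uncertain to that extent.

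Fabp4 (chr3:10204088-10208576, minus strand), the adipocyte-type binding protein, was shared by 4 classes. It was at 560, 323, 229 and 233 CPM in alveolar macrophages (libraries 1, 2, 3 and 7), at 294, 152 and 444 CPM in Arg1/Mmp12 macrophages (libraries 1, 2 and 7) and at 228, 339 and 402 CPM in the Spp1 cluster. Nonclassical monocytes had 356, 446 and 302 CPM in libraries 1, 2 and 3. The 4 ranges overlapped, and which class was highest depended on the library. C1q macrophages had 10.6 to 37.6 CPM and classical monocytes 1.71 to 31.5 CPM, below all 4.

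**Figure D2:**
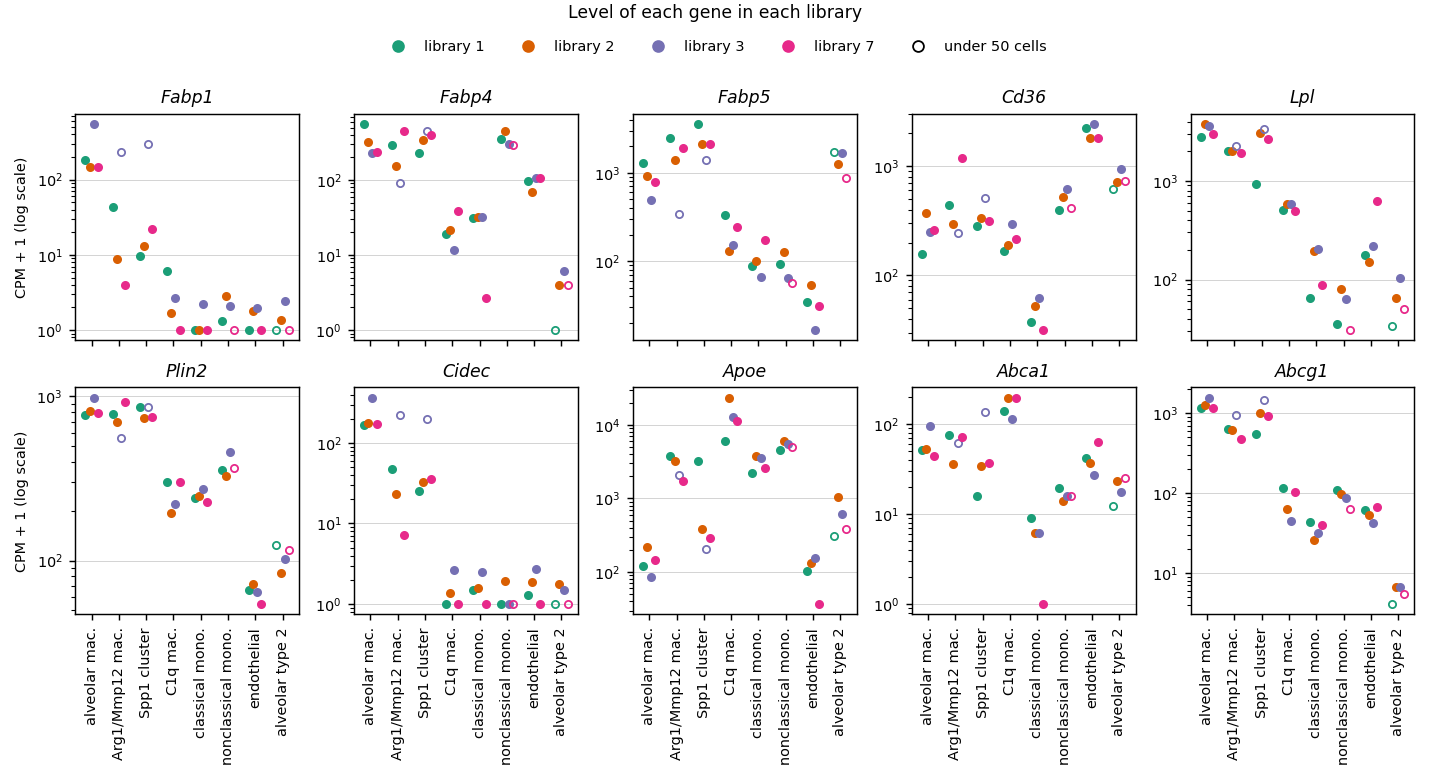
Level of each gene (CPM + 1, log scale) in 8 cell classes, 1 point for each library, filled where the library held at least 50 cells of the class. Fabp1 and Cidec of alveolar macrophages lie highest in library 3 (552 and 364 CPM), Cd36 of Arg1/Mmp12 macrophages in library 7 (1176 CPM), and Apoe of the Spp1 cluster in library 1 (3276 CPM).

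Lpl (chr8:68880491-68907448, plus strand), which hydrolyses the triglyceride of lipoproteins, was at 2796, 3799, 3572 and 3001 CPM in alveolar macrophages of libraries 1, 2, 3 and 7. Arg1/Mmp12 macrophages were lower and almost equal between libraries, with 2020, 2002 and 1915 CPM in libraries 1, 2 and 7. In the Spp1 cluster library 1 stood apart with 923 CPM, against 3098 and 2661 CPM in libraries 2 and 7, of which 3098 lay within the alveolar range. C1q macrophages had 495 to 590 CPM. Endothelial cells had 151 to 621 CPM, with library 7 above the other 3.

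Cd36 (chr5:17781690-17888801, minus strand), the receptor for long-chain fatty acids and oxidised lipoproteins, was led by endothelial cells with 2231, 1790, 2434 and 1797 CPM in libraries 1, 2, 3 and 7, above every other class. Alveolar type 2 cells followed with 719 and 931 CPM in libraries 2 and 3. Among macrophages the Arg1/Mmp12 class was highest in sum but uneven, with 437, 292 and 1176 CPM in libraries 1, 2 and 7. Alveolar macrophages had 155, 370, 249.5 and 258 CPM in libraries 1, 2, 3 and 7, a range that took in the Spp1 cluster (281 to 332 CPM) and C1q macrophages (166 to 295 CPM). Nonclassical monocytes had 393 to 621 CPM and classical monocytes 30.7 to 61.0 CPM, without overlap.

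Abcg1 (chr17:31057675-31117988, plus strand), which passes cholesterol to high-density lipoprotein, had its highest level in alveolar macrophages: 1181, 1281, 1568 and 1151 CPM in libraries 1, 2, 3 and 7. The Spp1 cluster followed with 557, 1022 and 915 CPM and the Arg1/Mmp12 macrophages with 633, 626 and 474 CPM in libraries 1, 2 and 7. The alveolar range was above both, and those 2 overlapped. Each other class of the 8 was at 114.7 CPM or less in each library with enough cells. T cells had 36.9 to 72.1 CPM, which overlapped C1q macrophages (43.4 to 114.7 CPM). In sum T cells had 48.1 CPM, near NK cells (49.0 CPM) and above alveolar type 2 (5.17 CPM) and club cells (9.23 CPM). The background for this gene thus depended on the cells taken.

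Abca1 (chr4:53030787-53159895, minus strand), the transporter that loads cholesterol onto lipid-poor apolipoproteins, was highest in C1q macrophages at 137, 195, 113 and 195 CPM in libraries 1, 2, 3 and 7. Alveolar macrophages had 50.4, 52.1, 94.8 and 42.8 CPM, below each of those values but close to the lowest in library 3. Among the 8 classes the 2 cholesterol exporters thus had their highest level in different macrophages. Outside the 8 classes, lymphatic endothelial-like cells (136) had 556 CPM of Abca1, from 296 to 618 CPM between libraries, of which only library 2 held 50 cells.

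Apoe (chr7:19696109-19699188, minus strand), which carries lipid between cells, was led among the 8 classes by C1q macrophages and monocytes. Outside the 8 classes, fibroblast-like cells (1553) had 3688 CPM in sum, above classical monocytes (3084 CPM). C1q macrophages had 6094, 23366, 12651 and 11159 CPM in libraries 1, 2, 3 and 7, and nonclassical monocytes 4566, 6124 and 5442 CPM in libraries 1, 2 and 3. The ranges met only through the C1q value of library 1, which lay below the monocyte value of library 2, and within each of these 3 libraries C1q macrophages were higher. Classical monocytes had 2212, 3717, 3498 and 2570 CPM. Alveolar macrophages had 121, 218, 84.6 and 145 CPM, and endothelial cells 35.9 to 153 CPM. B cells, which are not a known source of the gene, had 168 to 609 CPM and T cells 8.29 to 109 CPM. In sum the alveolar level (131 CPM) was below that of B cells (402 CPM) and above that of T cells (55.9 CPM), so it was not clear of this background. In alveolar macrophages 41.5% of the Apoe UMIs lay in 1% of the cells.

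Set side by side within each library, 7 of the 10 genes were at least 2-fold higher in alveolar than in C1q macrophages in all 4 libraries (Fabp1, Fabp4, Fabp5, Lpl, Plin2, Cidec and Abcg1). Of all 8484 genes with at least 10 CPM in either class, 6.36% met the same rule. Lpl was 5.50, 6.44, 6.14 and 6.07 times higher in libraries 1, 2, 3 and 7, a nearly constant ratio, and Plin2 2.58 to 4.45 times. Abcg1 ranged from 10.3 to 36.2 times, Fabp4 from 6.18 to 31.4 times and Fabp5 from 3.28 to 7.01 times. Cidec was at least 240-fold higher in library 1, at least 165-fold in library 2, at least 148-fold in library 3 and at least 58.0-fold in library 7, taken against a floor of 3 UMIs in each library. Apoe was the 1 gene lower in all 4 libraries, 50.3 to 150 times higher in C1q macrophages, against 7.17% of all genes in that direction. Cd36 and Abca1 met neither rule. Cd36 ratios lay between 0.845 and 1.97, and Abca1 was 0.840 (0.701 to 1.01) times the C1q level in library 3 and 0.220 to 0.368 times in the others. The Fabp5 call depended on how cells were chosen: its summed log2 ratio was 1.62 here, 0.26 with cells of at most 5% mitochondrial UMIs, where the call was lost, and -0.08 with classes set by marker UMIs alone, which turned its direction. Plin2 lost its call in the same 2 settings (log2 ratios of 1.38 and 1.24 against 1.80).

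Against classical monocytes, from which lung macrophages can be replenished, 9 of the 10 genes were at least 2-fold higher in alveolar macrophages in all 4 libraries, and Apoe was lower. The background was 10.5% of 8287 genes higher and 7.65% lower. Lpl was 17.5 to 43.7 times higher, Abcg1 27.9 to 52.1 times, Fabp5 4.62 to 14.8 times, Cd36 4.09 to 8.42 times and Plin2 3.22 to 3.60 times. Fabp1 was 447 (191 to 1377) times higher in library 3, where 5 UMIs were seen in monocytes, and at least 248-fold in library 1. Apoe was 17.1 to 41.4 times higher in the monocytes. The Apoe call was lost with limits on UMIs and genes per cell and with the Spp1 cluster joined to alveolar macrophages.

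**Figure D3:**
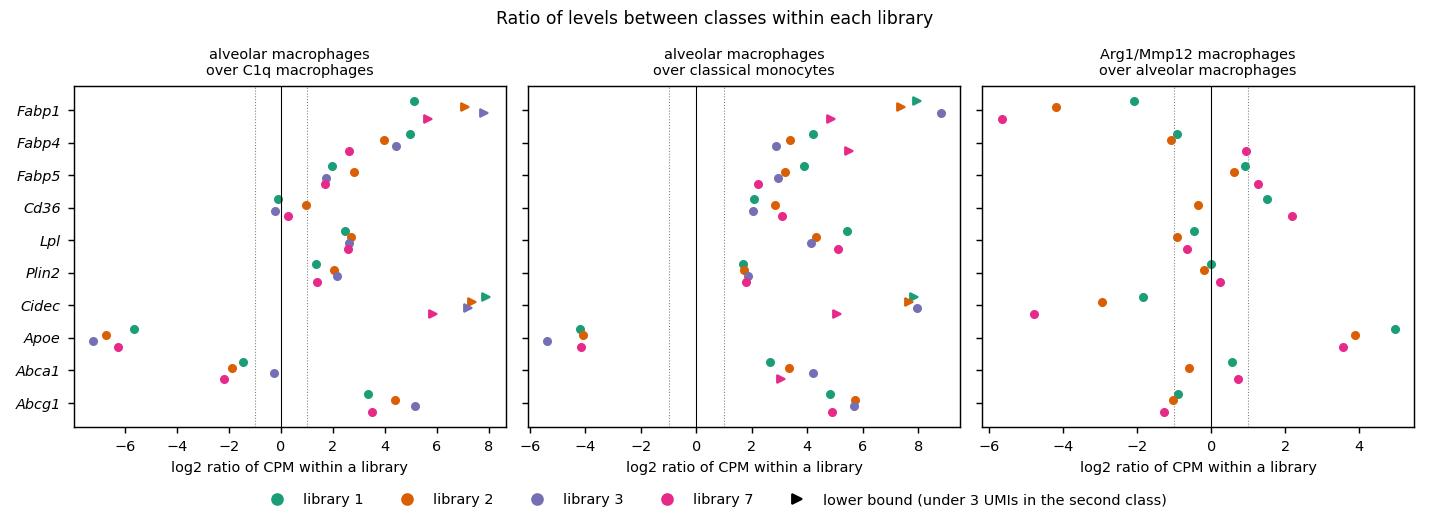
Log2 ratio of CPM within each library for 3 pairs of classes, 1 point for each library with 50 cells of both, with dotted lines at 2-fold and triangles for lower bounds. Lpl, Plin2 and Abcg1 lie right of the dotted line in the first 2 panels and Apoe on the left, while in the third panel Apoe lies on the right and Fabp1 and Cidec on the left in all 3 libraries.

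Arg1/Mmp12 macrophages carry markers linked to tissue repair and elastin breakdown. Compared with alveolar macrophages of the same library (libraries 1, 2 and 7), 1 of the 10 genes was at least 2-fold higher in each, Apoe, at 31.0, 14.7 and 11.8 times. Fabp1 was 4.27, 18.3 and 50.3 times lower and Cidec 3.58, 7.74 and 27.5 times lower. Over all 8091 genes, 2.37% were higher and 1.74% lower by this rule. Cd36 was 2.83 and 4.55 times higher in libraries 1 and 7 but 0.788 times the alveolar level in library 2. Fabp5 was 1.89, 1.54 and 2.41 times higher, Lpl 0.723, 0.527 and 0.638 times, Abcg1 0.536, 0.489 and 0.411 times and Plin2 1.01, 0.868 and 1.18 times the alveolar level.

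The Arg1/Mmp12 class was not uniform in these genes. It also carried the 7 C1q macrophage markers, all detected, at a summed 1857 CPM (1301 to 2205 CPM between libraries), against 32.9 CPM (21.7 to 53.1) in alveolar and 14620 CPM (10570 to 17661) in C1q macrophages. Its 716 cells with a UMI of C1qa, C1qb or C1qc held Apoe at 5735 CPM, and its 921 cells without one at 337 CPM (median depth 10746 and 8350 UMIs). In the cells without a C1q UMI, Apoe was 289, 384 and 401 CPM in libraries 1, 2 and 7, which is above the alveolar macrophages in each library but less than 2-fold above in library 2, so the call on Apoe was lost. It was also lost with limits on UMIs and genes per cell. A split by Marco or Krt79, markers of the alveolar class, ran the opposite way. The 526 cells with such a UMI held Lpl at 3189 CPM, Abcg1 at 838 CPM, Cidec at 83.8 CPM, Fabp1 at 75.4 CPM and Apoe at 543 CPM. The 1111 cells without one held Lpl at 1229 CPM, Abcg1 at 430 CPM, Cidec at 4.30 CPM, Fabp1 at 1.88 CPM and Apoe at 4610 CPM (median depth 12369 and 6561 UMIs). For Apoe this rested on libraries 1 (436 with and 7347 CPM without) and 7 (490 and 1980 CPM), since library 2 had 2593 and 3341 CPM, with 25 cells on the first side. After thinning to 3000 UMIs, 11 of 1206 cells held both Cidec and Apoe where 51.6 would if the genes were spread independently within libraries, while Apoe and Abca1 were together in 121 cells against 74.6. These splits were made after the levels were seen, and the part of mixed droplets in them was not tested.

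In the Spp1 cluster, Fabp5 was 2.76, 2.29 and 2.63 times the alveolar level in libraries 1, 2 and 7, and was the 1 gene of the 10 past 2-fold higher in each, against 0.541% of 7955 genes. Fabp1 (20.7, 11.9 and 7.05 times) and Cidec (6.88, 5.53 and 4.93 times) were lower in each, against 1.24% of all genes. Plin2 was 1.12, 0.911 and 0.954 times the alveolar level. Lpl was 0.330, 0.815 and 0.887 times and Abcg1 0.472, 0.798 and 0.794 times, both past 2-fold lower in library 1 alone. Apoe was at 3276 CPM in library 1 and at 382 and 288 CPM in libraries 2 and 7. The C1q markers of this cluster summed to between 75.9 and 645 CPM in a library, and in its cells without a C1q UMI Apoe was still 1812 CPM in library 1 (42 cells) against 256 and 171 CPM in libraries 2 and 7.

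Between the 2 monocyte classes, Fabp4, Cd36, Abca1 and Abcg1 were at least 2-fold higher in nonclassical monocytes, which patrol the vessel wall, in libraries 1, 2 and 3. Of 7515 genes, 3.33% were higher in nonclassical and 3.55% in classical monocytes, and none of the 8 tested genes of the set was higher in classical monocytes in each library. Cd36 was 10.7, 10.04 and 10.2 times higher, a steady ratio, and Fabp4 11.8, 14.2 and 9.72 times. Abca1 (2.30 to 2.83 times) and Abcg1 (2.54 to 3.93 times) differed less, and Apoe was 2.06, 1.65 and 1.56 times higher. Classical monocytes fell into 2 clusters that differed in Fabp4. A cluster of 520 cells with Ace at 281 CPM and Ly6c2 at 841 CPM had 62.0 CPM, and a cluster of 798 cells with Ace at 87.7 CPM and Ly6c2 at 1645 CPM had 7.55 CPM. In Cd36 these clusters had 87.1 and 23.1 CPM.

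Within a class the libraries also differed. In alveolar macrophages 7 of the 10 genes had a library at least 2-fold above another, against 10.2% of all genes with at least 10 CPM. Fabp1 (3.82-fold, 3.52 to 4.14), Cidec (2.16-fold) and Abca1 (2.22-fold) were highest in library 3, Fabp4 (2.45-fold) and Fabp5 (2.61-fold) were highest in library 1 and lowest in library 3, and Cd36 (2.39-fold) and Apoe (2.57-fold) were highest in library 2. Lpl, Plin2 and Abcg1 stayed within 2-fold. Without library 3 the count fell to 2 genes (Cd36 and Fabp4) and without library 1 to 4, so these 2 libraries carried most of it. Since the libraries have no label, the spread has no direction by treatment. In C1q macrophages 4 genes passed (Fabp4, Fabp5, Apoe and Abcg1) against 19.5% of all genes, Apoe with 3.83-fold between libraries 2 and 1. In Arg1/Mmp12 macrophages 6 genes passed against 10% of all genes, led by Fabp1 (14.4-fold, 8.90 to 24.97) and Cidec (7.52-fold), both highest in library 1, and Cd36 (4.03-fold), highest in library 7. The median depth of these cells was 4935 UMIs in library 7 and 11080 in library 1. The make-up of the class also differed. In library 1, 413 cells had a Marco or Krt79 UMI and 445 did not, with Fabp1 at 81.3 and 0.792 CPM. In library 7, 72 cells had one and 577 did not, with Fabp1 at 10.7 and 1.27 CPM. The cause of the spread was not tested. In the Spp1 cluster 4 genes passed against 10.3%, with Apoe at 11.4-fold and Lpl at 3.36-fold, both set by library 1.

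Counted as cells rather than molecules, with every cell thinned to 1500 UMIs, Lpl was seen in 96.1% (94.9 to 97.1) of 1272 alveolar macrophages, 85.0% of the Spp1 cluster, 62.0% of Arg1/Mmp12 macrophages and 38.9% of C1q macrophages. T cells, in which the gene is not expected, showed 1.70%. Fabp1 was seen in 29.7% and Cidec in 31.4% of alveolar macrophages, and each in 0.129% of C1q macrophages and 0.0893% of T cells. Library 3 raised both alveolar shares: Fabp1 was seen in 19.05, 14.5, 42.5 and 13.5% and Cidec in 19.05, 21.2, 41.2 and 20.7% of cells in libraries 1, 2, 3 and 7. Without thinning those alveolar shares were 67.3% and 83.2%, so the remainder at 1500 UMIs is in large part a matter of depth. Apoe ran from 79.0% (76.0 to 81.9) of C1q macrophages through 41.3% of Arg1/Mmp12 macrophages and 20.2% of the Spp1 cluster to 8.65% of alveolar macrophages, with 5% in T cells and 28.1% in B cells as background. Thinning left out 251 of the 1637 Arg1/Mmp12 macrophages and at most 69 cells of any other class named. Before thinning the median depth was 13913 UMIs in alveolar macrophages, 5857 in T cells and 4101 in B cells.

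**Figure D4:**
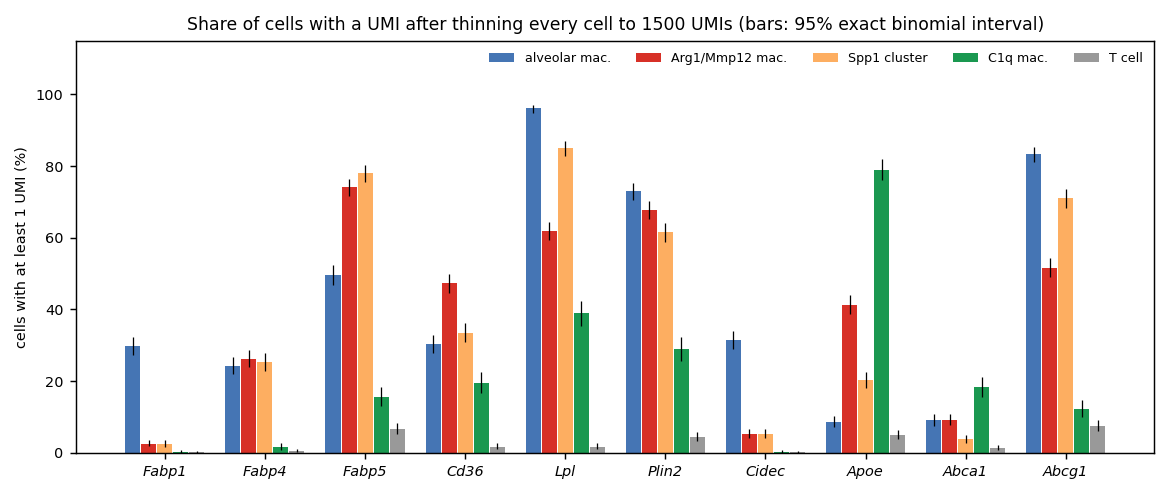
Percent of cells with at least 1 UMI of each gene after thinning to 1500 UMIs, for 4 macrophage classes and T cells as background, with 95% exact binomial intervals. Lpl is seen in 96.1% of alveolar macrophages and 1.70% of T cells, and Apoe in 79.0% of C1q macrophages.

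Endothelial cells, which import fatty acids from the blood and anchor lipoprotein lipase through Gpihbp1, differed by cluster. In the main Gpihbp1/Sema3g cluster (1655 cells) Cd36 was at 2533, 2041, 2900 and 1884 CPM in libraries 1, 2, 3 and 7, and the Apln/Ednrb cluster (335 cells) had 1990 CPM in sum. The Vwf/Slc6a2 cluster (366 cells, Vwf 4749 CPM) had less in every library, 1069, 1114, 1028 and 990 CPM, though library 7 held only 22 of its cells. Fabp4 differed the other way between the main and the Vwf/Slc6a2 cluster, while the Apln/Ednrb cluster held only 24 Fabp4 UMIs, in 13 of its cells. The Vwf/Slc6a2 cluster had 519, 366, 687 and 501 CPM of Fabp4, in 100 of its 366 cells, whereas the main cluster had 13.4 CPM, of which 1 cell gave 100 of 132 UMIs. Lpl was highest in library 7 in the main cluster (841 CPM against 204 to 291 CPM in the others).

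**Figure D5:**
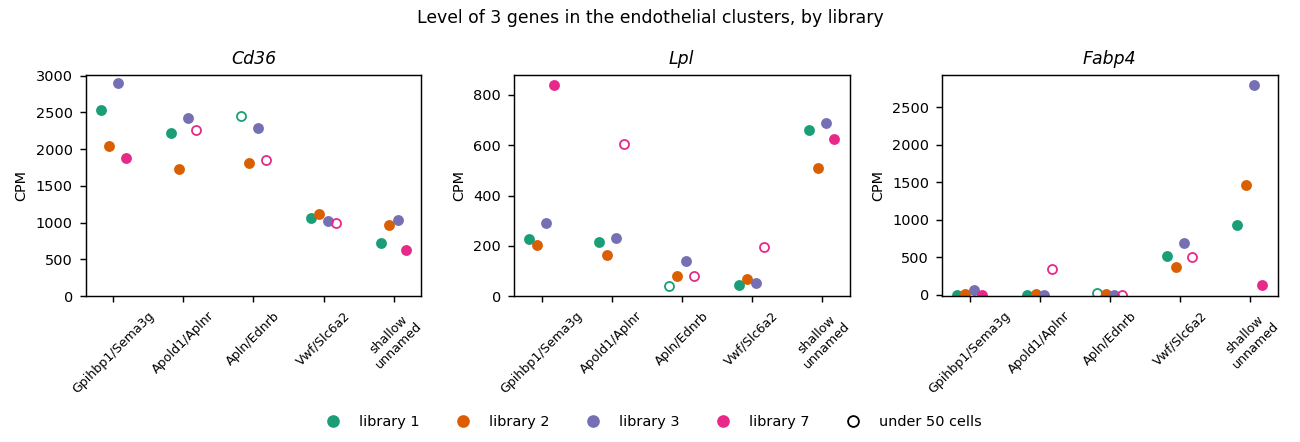
CPM of Cd36, Lpl and Fabp4 in 4 endothelial clusters named by leading genes and in a shallow unnamed cluster, 1 point for each library, open where fewer than 50 cells were held. Cd36 is lower and Fabp4 higher in the Vwf/Slc6a2 cluster than in the Gpihbp1/Sema3g cluster in every library.

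Around the 10 genes, a list of 76 further lipid handling genes was read in the same way, by role. Against C1q macrophages 66 were tested, of which 16 were at least 2-fold higher in alveolar macrophages in all 4 libraries and 6 lower, with a median log2 ratio of 0.84 over the list and 0.22 over all genes tested, of which 6.36% were higher and 7.17% lower. The regulators gave 4 of 12 higher and none lower (Pparg, Rxra, Nr1h3 and Bhlhe41). Droplet coat and lipolysis genes gave 3 of 8 higher (Pnpla2, Abhd5 and Mgll) and Lipe lower, and fatty acid oxidation 3 of 8 higher (Cpt1a, Cpt2 and Hadhb). Of 9 tested uptake genes Olr1 was higher and Cxcl16 lower. Mgll, the monoglyceride lipase, was at 232 CPM against 1.93 CPM, Olr1, a receptor for oxidised lipoprotein, at 294 against 16.8 CPM, and Pparg at 123 against 13.2 CPM. Lower in alveolar macrophages were Cxcl16, a scavenger receptor and chemokine, at 16.4 against 643 CPM, and Pltp, the phospholipid transfer protein, at 86.6 against 596 CPM.

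Against classical monocytes 19 of 64 tested list genes were higher and 2 lower (Cyp27a1 and Lipe), with a median log2 ratio of 0.84 against 0.29 over all genes, of which 10.5% were higher and 7.65% lower. Bhlhe41, a transcription factor, was at 180 CPM against 0.656 CPM and Nceh1, a cholesterol ester hydrolase, at 655 against 29.1 CPM. Between Arg1/Mmp12 and alveolar macrophages 62 genes were tested, and only Cxcl16 (252 against 16.4 CPM, higher) and Apoc1 (lower) passed, 1 each way, near the 2.37% and 1.74% of all genes. None of the 7 sterol synthesis, 4 fatty acid synthesis, 8 oxidation or 12 regulator genes tested did. In the Spp1 cluster none of 63 tested list genes was higher than in alveolar macrophages, and Apoc1 and Scd1 were lower. Over all genes 0.541% were higher and 1.24% lower. Between the monocytes 57 list genes were tested, and 3 were higher in classical cells (Npc2 1334 against 473 CPM). In nonclassical cells 4 were higher (G0s2, an inhibitor of triglyceride lipase, 227 against 32.3 CPM, and Bhlhe40, 306 against 106 CPM). Over all genes 3.55% were higher in classical and 3.33% in nonclassical cells.

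Genes whose level ran most like the members over the same 60 sums were picked from 5296 genes with at least 100 CPM in one of them. For Fabp1 they were Cpne5 (Pearson r 0.975) and Gal (0.953) beside Cidec, and for Cidec they were Cpne5 (0.972), Ear1 (0.972) and Krt79 (0.966). Lpl ran with Camk1 (0.945), Mertk (0.922) and Rxra (0.915), Abcg1 with Klhdc4 (0.945), Olr1 (0.941) and F7 (0.920), and Plin2 with Creg1 (0.930), Ftl1 (0.927) and Atp6v0d1 (0.920). The correlations were lower for Fabp5 (led by Ddhd1, 0.854), Fabp4 (Tcf7l2, 0.842), Cd36 (Specc1, 0.827) and Abca1 (Tgfbr2, 0.735). Points of 1 library share its depth and free RNA, and these values describe the ranking alone.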

How the data were processed

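The deposited matrix held UMI counts per gene and barcode that the authors made with Cell Ranger 3.1.0 and STAR on the mm10 build, per the file headers and the submitters' processing notes. Its 7 libraries carry no sample names, and it was read as 1 sample, without a test across samples. Libraries 1, 2, 3 and 7 were used, with barcodes at no more than 10% mitochondrial UMIs (4800, 7626, 5129 and 3301 cells with 45221640, 76435633, 44826864 and 33298803 UMIs). Cells were clustered with scikit-learn 1.9.0 and leidenalg 0.10.2 (2000 variable genes, 30 components, resolution 0.8, libraries aligned by mutual nearest neighbors) without the 10 genes and the 76 lipid genes. Clusters were named from marker lists, and 2 mixed clusters were set aside after they were seen. Doublet calls by Scrublet in scanpy 1.11.5 (106, 429, 168 and 25 cells in libraries 1, 2, 3 and 7) were kept, and were left out as an alternative.

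UMIs were summed per class and library. A gene was tested at 10 CPM or more in either class and called at 2-fold in every library with 50 cells of both. Named with values from the list were at most 4 genes per direction with the largest summed ratio and 100 CPM in one class, and like genes were the 3 of highest correlation per member, with those of Apoe not reported here. The calling step was tested on simulated data. Positions are from GENCODE M21 and promoters from RefSeq. The members and lists were chosen with earlier results of these data known.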

Additional observations from a re-analysis of the deposited data

Results flagged for a closer look

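Libraries 4, 5 and 6 of the matrix entered no comparison, and 8 of the 10 genes had UMIs there. Over all their barcodes Apoe was at 547 CPM, Cd36 at 52.3 CPM, Abcg1 at 29.1 CPM, Plin2 at 29.0 CPM, Fabp5 at 22.5 CPM, Abca1 at 21.5 CPM, Lpl at 20.7 CPM and Fabp4 at 11.9 CPM. Fabp1 and Cidec had 0 UMIs there, against 40.2 and 35.4 CPM over libraries 1, 2, 3 and 7.

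A shallow cluster that was given no name (739 cells, median 845 UMIs) held Fabp4 at 1700 CPM, above the Vwf/Slc6a2 endothelial cluster at 456 CPM. In libraries 1, 2, 3 and 7 the level was 924, 1468, 2796 and 134 CPM, and 29 cells had 5 or more Fabp4 UMIs. The level rests on few cells: 63.5% of the cluster's Fabp4 UMIs lay in 1% of its cells. Of all cells kept, 19 had at least 1% of their UMIs from Fabp4, 18 of them in this cluster, and 1, 9, 9 and 0 came from libraries 1, 2, 3 and 7.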

How the results depend on the processing

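Of 600 single-gene ratios recomputed under alternative settings, 581 kept their side of the rule, 12 lost the call and 6 gained it. The settings include a rule of 4-fold in place of 2-fold. Calls lost under it, such as Fabp5 and Plin2 over C1q macrophages and Plin2 over classical monocytes, were still past 2-fold. In 1 called ratio the direction turned. This was Fabp5 in alveolar over C1q macrophages, with a log2 ratio of -0.08 when classes were set by marker UMIs alone. Direction was checked only for ratios past the 2-fold rule in the clustering used here. Leaving out 1 library makes the rule easier to meet, so those settings could hardly lose a call. Settings that changed the Arg1/Mmp12 class alone left ratios between other classes as they were. The 581 thus include ratios that could not change. Ratios of the Spp1 cluster and between the monocytes were not among the 600. Without alignment, calls between Arg1/Mmp12 and alveolar macrophages rested on library 2 alone (84 and 56 cells). The count of genes higher in Arg1/Mmp12 than in alveolar macrophages, 1 here, was 0 with limits on UMIs and genes. It was also 0 with cells holding a C1q UMI left out of the Arg1/Mmp12 class alone, an alternative chosen after the data were seen. With such cells left out of both classes, Apoe was past 2-fold higher in each library. Leaving out 1 library gave 1 to 2, with Cd36 added without library 2. The count of genes differing between libraries within alveolar macrophages, 7 here, was 1 without alignment (where libraries 2 and 3 alone held 50 such cells), 0 at 4-fold, and 2 to 6 with 1 library left out. The cause was not tested. No paired analysis was possible because the libraries carry no sample names or replicate numbers.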
